A study of Mus musculus with 9 samples.

Results

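The genes described here are those that the annotation of the Affymetrix Mouse Genome 430 2.0 array places on mouse chromosome 18, taken in order from the centromere side to the distal end. A gene was represented by the probe set with the highest mean signal over 9 arrays, and Ppargc1b, Cd14, Cd74 and Csf1r were left out. This gave 454 of the 18194 genes on the array. They were divided at Myo5b, with 58 genes from Myo5b to the distal end and 396 before it. That division was placed on the same difference between ALT and telomerase tumours that is reported below, so the values of these genes are a description and carry no test.

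The RNA came from T-cell lymphomas that arose under 4-hydroxytamoxifen (4-OHT) in mice of genotype G3 Atm-/- TERT-ER. Atm, absent from these animals, is the kinase that responds to double-strand breaks. They also carried a fusion of the telomerase reverse transcriptase to the oestrogen receptor, which 4-OHT activates. The lymphomas were carried in SCID recipients, which lack mature B and T cells but keep their other host cells. The telomerase group held 3 tumours at passage 4 from recipients given 4-OHT. The ALT group held 5 tumours at passage 4 from recipients given vehicle, which had come to rely on alternative lengthening of telomeres. A single parental tumour, labelled telomerase-positive and with no passage number, stood beside them. Drug withdrawal, loss of telomerase activity and ALT coincide in this design and cannot be told apart, and the labels name neither the promoter of the transgene nor how many parental lines the tumours descend from. Nothing in the labels says whether tumours of a group were grown from separate cell stocks, so the spread within a group may be partly technical.

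Telomeres cap chromosome ends, and cells that divide without telomerase lose telomeric repeats at each division. ALT restores the repeats by copying them from other telomeres through recombination. A mouse chromosome has its centromere at one end, so chromosome 18 has a single long arm whose far end lies next to a telomere. Genes on this chromosome include the SMAD proteins that carry TGF-beta signals to the nucleus, the T-cell transcription factor Nfatc1 and a series of zinc finger genes near the distal end.

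Each array gave 1 MAS5 signal, a brightness on a linear scale, per probe set, and array medians lay between 39.8 and 43.8. Differences were taken on log2(signal + 16), which understates the change of dim genes. A gene counted as above the filter where its mean signal exceeded 25.3, the value below which 40% of all probe sets lie. This held for 293 of the 454 genes (39 of 58 from Myo5b onwards and 254 of 396 before it), and 161 genes stayed below it. Of the T-cell markers, 13 of 13 measured were above the filter. So were 11 of 11 pancreatic acinar, 10 of 10 skeletal muscle and 11 of 11 myeloid markers, and passing it does not identify the cells. Cd3d signals were 9308 to 9846 in telomerase, 6700 to 8262.5 in ALT tumours and 9546 in the parental tumour. Limma (adjusted p under 0.05) called 3 T-cell markers higher and 3 lower in ALT tumours, and 7.48% and 10.1% of all tested genes. Transcripts of pancreatic acinar cells were high in telomerase 3, ALT 1, ALT 2 and ALT 5, where the summed signals of 11 markers were 89016 to 173905, against 264 to 969 on the other arrays. Summed signals of 10 skeletal muscle markers were 13204 in the parental tumour and 8231 in telomerase 1, against 239 to 530 elsewhere. With bulk RNA, fewer cells of a type and less RNA per cell cannot be told apart.

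Taken as a median over its genes, the distal tip was lower in every ALT tumour, and most of the rest of the chromosome was slightly higher. The lower values did not start at Myo5b. They started 26 genes further on, at Pard6g. By their brightest probe sets, most genes between Myo5b and Pard6g lay on the higher side with the rest of the chromosome. The chromosome therefore falls into 3 stretches, a split chosen after the values were seen: 396 genes before Myo5b, 26 from Myo5b to the gene before Pard6g, and 32 from Pard6g to the distal end.

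For each array the median difference from the telomerase mean was taken over the genes of a stretch that lay above the filter. Over 21 genes from Pard6g to the distal end this median was −1.77 in ALT 1, −1.10 in ALT 2, −1.68 in ALT 3, −1.55 in ALT 4 and −1.22 in ALT 5. It was 0.12, 0.14 and −0.28 in telomerase 1, 2 and 3, and −0.11 in the parental tumour. The ALT arrays lay below every other array, with a mean of −1.46 ± 0.29 (SD, n = 5), which is a level 2.76-fold lower. Over 18 genes from Myo5b to the gene before Pard6g the ALT median was 0.27 ± 0.15 (SD, n = 5), and ALT 1, at 0.08, lay below telomerase 2, at 0.11. Over the 254 genes before Myo5b it was 0.20 ± 0.022 (SD, n = 5). There the lowest ALT array stood at 0.19 and the highest telomerase array at 0.095. The same median over all 12369 genes above the filter was −0.011 in the ALT tumours.

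**Figure D1:**
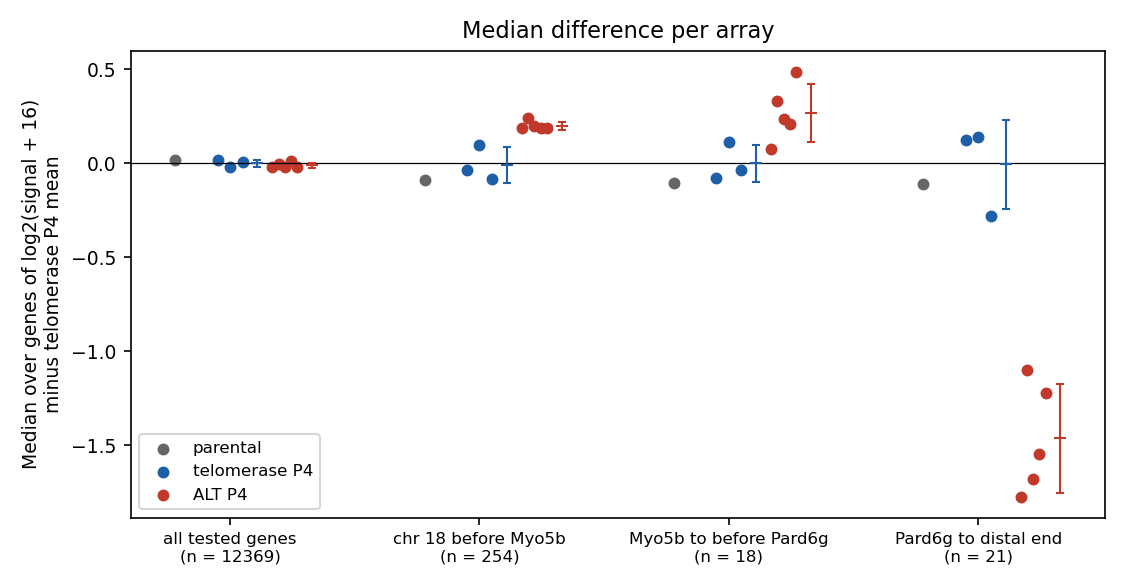
Median over genes above the filter of log2(signal + 16) minus the telomerase P4 mean, 1 point per array, for all tested genes and for 3 stretches of chromosome 18; bars give the mean and SD of the telomerase (n = 3) and ALT (n = 5) arrays. The 5 ALT arrays lie between −1.77 and −1.10 from Pard6g to the distal end, and between 0.19 and 0.24 before Myo5b.

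Cut at Myo5b and taken over all members, bright or dim, the contrast was much smaller. The ALT median was −0.075 ± 0.082 (SD, n = 5) over the 58 genes from Myo5b and 0.14 ± 0.034 (SD, n = 5) over the 396 genes before it. The difference between them was −0.22 ± 0.091 (SD, n = 5), with −0.096 in ALT 5 as the smallest and −0.34 in ALT 2 as the largest. It was 0.027, 0.064 and −0.027 in the telomerase arrays and −0.054 in the parental tumour. Over members above the filter the difference was −0.79 ± 0.12 (SD, n = 5), and with the cut at Pard6g it was −1.67 for the ALT tumours. For each of these 3 differences the sign was the same in each of the 5 ALT tumours.

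**Figure D2:**
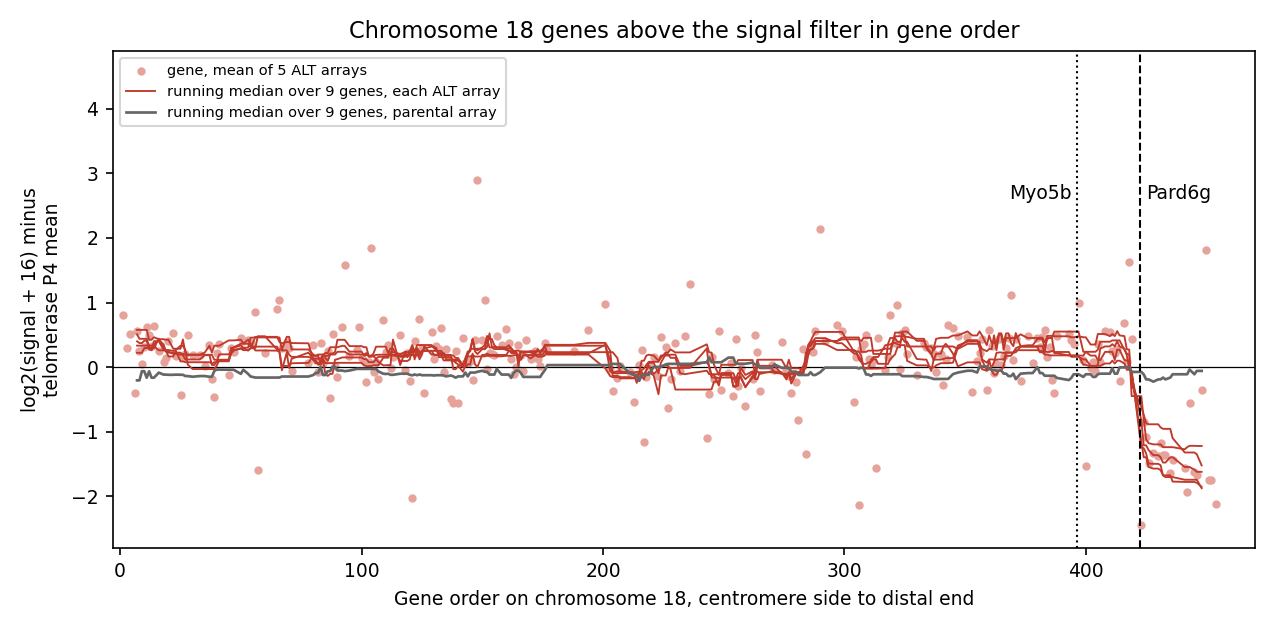
Difference of log2(signal + 16) from the telomerase P4 mean against gene order on chromosome 18, for 293 genes above the filter. Points are means of 5 ALT arrays, and lines are running medians over 9 genes for each ALT array and for the parental array; dotted and dashed lines mark Myo5b and Pard6g. The 5 ALT lines run above 0 over most of the chromosome, near 0 around order 204 to 283, and drop below 0 together at Pard6g, while the parental line stays near 0.

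Calls were made with limma over all 12369 tested genes, of which 17.5% passed an adjusted p of 0.05, 7.48% as higher and 10.1% as lower in ALT tumours. Of the 39 genes from Myo5b onwards, 28 passed, 8 higher and 20 lower. From Pard6g onwards 19 of 21 passed as lower and 1 as higher, and from Myo5b to the gene before Pard6g 7 of 18 passed as higher and 1 as lower. Before Myo5b 54 of 254 passed as higher and 14 as lower. Since these genes were chosen on the same contrast, nothing is read from these counts. Without telomerase 1 the calls before Myo5b dropped from 68 to 32 and those over all genes from 2170 to 1163.

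The turn lies in a gap between Epg5 and Pard6g. Epg5, which acts in the fusion of autophagosomes with lysosomes, is the last gene on the higher side. Its signals were 838, 937 and 952 in the telomerase tumours, 925 in the parental tumour, and 1281, 1273, 1031, 1323 and 1282 in ALT 1 to 5. Each ALT tumour was above each telomerase tumour. The next 3 genes, the urea transporters Slc14a1 and Slc14a2 and the lncRNA 4931439C15Rik, lay below the filter with mean differences between −0.038 and 0.19, and they place the turn no more closely. Pard6g, a partitioning-defective protein of the cell polarity complex, is the first gene on the lower side. It gave 1003, 1341 and 688 in the telomerase tumours, 698 in the parental tumour, and 166, 186, 125, 129 and 243 in the ALT tumours. The groups were well apart, with means of 1011 ± 327 (SD, n = 3) and 170 ± 48.5 (SD, n = 5), a level 5.95-fold lower and a log2 difference of −2.45, the lowest of the 293 genes.

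**Figure D3:**
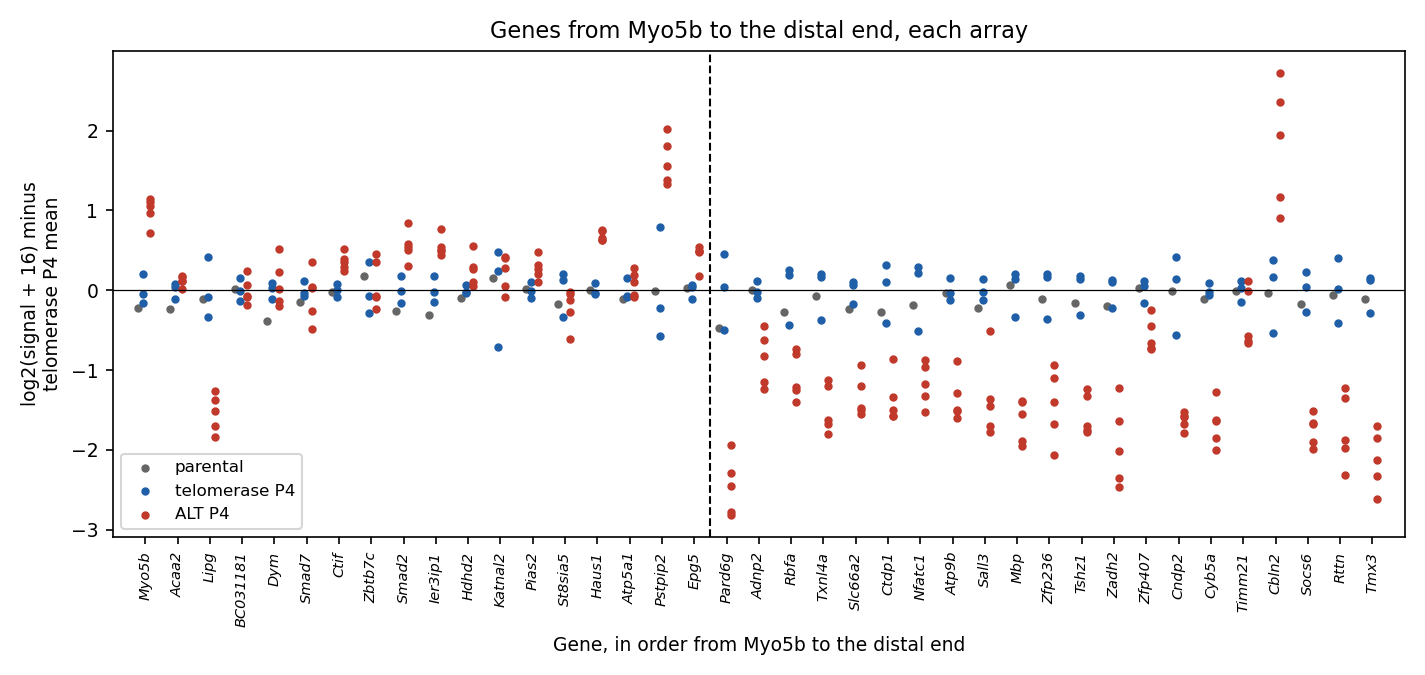
Difference of log2(signal + 16) from the telomerase P4 mean for the 39 genes above the filter from Myo5b to the distal end, in gene order, 1 point per array; the dashed line marks the turn before Pard6g. Right of it the ALT points lie below 0 for each gene but Cbln2 and, in ALT 5, Timm21; left of it Lipg is the only gene with all 5 ALT points below −1.

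From Pard6g to the distal end 20 of the 21 genes above the filter had a mean difference below 0, and in 19 the ALT and telomerase arrays did not overlap. Among all tested genes 13.9% were lower and 10.9% higher without overlap. Over these 19 genes the parental tumour lay above every ALT array and nearer the telomerase mean in 19. Among the ALT tumours, ALT 5 was the highest in 12 and ALT 2 in 6, while ALT 1 was the lowest in 11 and ALT 3 in 7. Telomerase 3 was the lowest telomerase tumour in 18. The tumours therefore kept much the same order from gene to gene within this stretch.

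The acinar transcripts ran partly along that order, since ALT 2 and ALT 5 carried them but so did ALT 1. Among the arrays without these transcripts (2 telomerase and 2 ALT) the ALT median from Pard6g to the distal end was −1.75, and 20 of 21 genes were lower without overlap, as were 27.4% of all tested genes on these arrays. Among the arrays with them (1 telomerase and 3 ALT) it was −1.06, and 19 of 21 were lower without overlap, as were 33.2% of all tested genes. In the second set telomerase 3, the lowest telomerase tumour in most of these genes, is the sole reference.

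A list of DNA-binding and chromatin regulators held 9 genes of the distal tip. It includes Fbxo15, which also stands on a list of ubiquitin ligases and proteases. Of the 9 genes 7 were above the filter. In 7 of those 7 the ALT arrays lay below the telomerase arrays (median log2 difference −1.36), as in 13.9% of all tested genes. Nfatc1 encodes a calcineurin-dependent transcription factor that works downstream of the T-cell receptor. Its signals were 448, 472 and 264 in the telomerase tumours, 333 in the parental tumour and 143, 189, 123, 202 and 160 in the ALT tumours. The nearest arrays were telomerase 3 and ALT 4, and the group means differed 2.42-fold (log2 difference −1.17). Tshz1, a teashirt zinc finger gene, gave 1189, 1221 and 871 against 304, 423, 311, 321 and 449, with 964 in the parental tumour (log2 difference −1.56). Sall3, a spalt-like zinc finger gene, gave 574, 642 and 535 against 159, 405, 168, 216 and 203 (log2 difference −1.36). ALT 2 stood apart from the other ALT tumours in Sall3, although still below each telomerase tumour.

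Zfp236, a zinc finger gene, had mean signals of 331 ± 71.1 (SD, n = 3) in telomerase and 115 ± 39.1 (SD, n = 5) in ALT tumours. Ctdp1, the phosphatase that acts on the tail of RNA polymerase II, had 661 ± 166 (SD, n = 3) and 245 ± 59.3 (SD, n = 5). Adnp2 and Zfp407 were the least changed of the regulators, with log2 differences of −0.86 and −0.56. In Zfp407 the highest ALT array, at 368, came close to the lowest telomerase array, at 391. Zfp516 and Fbxo15 lay below the filter, and Zfp516 was lower in each ALT tumour (18.8 ± 4.37, SD, n = 5) than in each telomerase tumour (32.5 ± 6.18, SD, n = 3).

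Signalling genes near the chromosome end followed the same course where they were bright enough to follow. Socs6, a suppressor of cytokine signalling with an SH2 domain, gave 295, 340 and 234 in the telomerase tumours, 253 in the parental tumour and 65.1, 79.0, 60.2, 79.6 and 89.7 in the ALT tumours. The groups were well apart, with a level 3.88-fold lower and a log2 difference of −1.75. Cd226, a co-stimulatory receptor of T and NK cells, lay below the filter with signals from 3.2 to 16.5, so that no direction is given for it.

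Genes for organelle and membrane proteins included the largest log2 differences of the distal tip after that of Pard6g. Tmx3, a thioredoxin-related protein of the endoplasmic reticulum and the last gene on the array before the distal end, gave 2465, 2409 and 1815 in the telomerase tumours, 2041 in the parental tumour and 428, 602, 347, 492 and 666 in the ALT tumours. Its level was 4.40-fold lower, with a log2 difference of −2.12. Cyb5a, a cytochrome b5 that donates electrons in fatty acid desaturation, gave 11655, 10462 and 10724 against 3009, 3494, 2718, 3540 and 4512, and 10114 in the parental tumour. In both genes the groups were far from overlapping. Atp9b, a P4-type ATPase of the Golgi, had 314 ± 32.5 (SD, n = 3) against 115 ± 28.2 (SD, n = 5).

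Zadh2, a zinc-binding oxidoreductase, gave 1378, 1356 and 1079 in the telomerase tumours and 216, 396, 235, 301 and 534 in the ALT tumours, with 1097 in the parental tumour. Cndp2, a cytosolic dipeptidase, gave 2395, 1984 and 1215 against 507, 614, 552, 585 and 593. The ALT tumours were within a narrow band for Cndp2 (570 ± 41.8, SD, n = 5), while the telomerase tumours were spread (1865 ± 599, SD, n = 3). Slc66a2, a membrane protein of the PQ-loop family, had a log2 difference of −1.33.

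Mbp encodes myelin basic protein and, from an upstream start, the golli proteins that occur in T cells. Its signals were 3140, 2995 and 2155 in the telomerase tumours, 2860 in the parental tumour and 692, 1021, 724, 922 and 1030 in the ALT tumours. Txnl4a, a subunit of the spliceosome, gave 1933, 1889 and 1288 against 471, 722, 512, 534 and 763. Rttn, a centrosomal protein needed for centriole assembly, gave 405, 307 and 223 against 48.2, 109, 70.9, 65.3 and 121. In these 3 genes, telomerase 3 was the lowest telomerase tumour and ALT 5 the highest ALT tumour, the order already seen across the stretch. Rbfa, a factor for the assembly of the mitochondrial ribosome, had 1011 ± 248 (SD, n = 3) against 467 ± 99.6 (SD, n = 5).

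**Figure D4:**
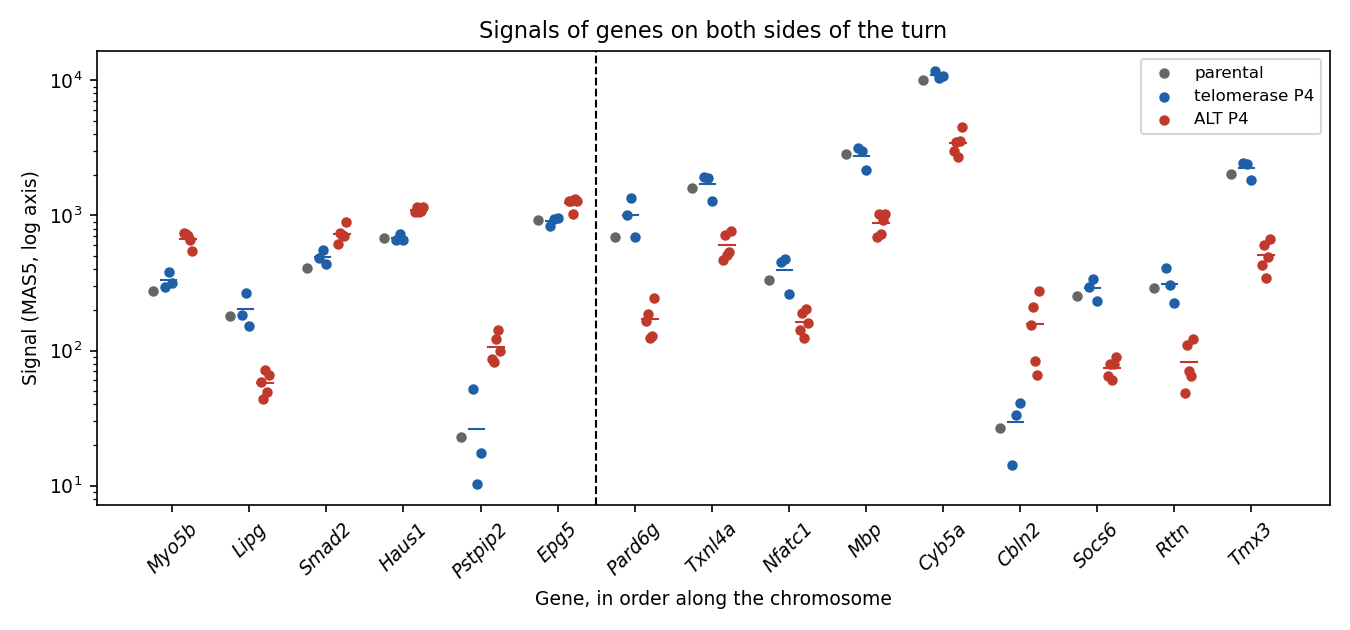
Deposited MAS5 signal (log axis) of 6 genes before and 9 genes after the turn, 1 point per array; short bars are the means of the telomerase (n = 3) and ALT (n = 5) arrays and the dashed line marks the turn. ALT points lie above the telomerase points for each gene on the left but Lipg, and below them for each gene on the right but Cbln2.

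A pair of genes above the filter in the distal tip did not share this pattern. Timm21, a subunit of the mitochondrial import machinery, gave 645, 603 and 534 in the telomerase tumours, 586 in the parental tumour and 375, 590, 394, 367 and 643 in the ALT tumours. ALT 2 and ALT 5 lay within the telomerase range and the other 3 ALT tumours below it. Cbln2, a secreted cerebellin that organises synapses, was higher, with 14.3, 33.5 and 41.0 against 154, 209, 83.3, 66.3 and 275, and 26.9 in the parental tumour. Its ALT arrays lay above the telomerase arrays without overlap (log2 difference 1.82), although the gene sits between Timm21 and Socs6. The 3 highest values were in ALT 1, ALT 2 and ALT 5, the ALT arrays that carried acinar transcripts, whose part in this difference was not tested.

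Further probe sets of the same genes were read as a second measurement on the same arrays. From Pard6g to the distal end 29 further probe sets of 14 genes were above the filter. Of these, 25 had a mean difference below 0 and 22 were lower without overlap (median −0.87). In Tmx3 the 3 further probe sets gave −2.08, −1.78 and −2.40, and in Mbp the 6 further ones ran from −1.69 to −0.75. The 4 that pointed up belonged to Adnp2, Txnl4a, Slc66a2 and Nfatc1, with log2 differences of 0.27 to 0.37, and their groups overlapped. Nfatc1 had 4 further probe sets, of which 3 gave −1.51, −1.23 and −0.79 and the other 0.37.

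Myo5b and the genes after it, up to Epg5, lay mostly on the higher side. In this stretch 14 of 18 genes above the filter had a mean difference above 0. Without overlap 7 were higher and 1 lower, where the shares of all tested genes were 10.9% and 13.9%. The counts for this stretch rest on the brightest probe set of each gene. The 14 further probe sets above the filter, of 10 genes, were split, with 7 above and 7 below 0, 2 higher and 3 lower without overlap, and a median of 0.0093. With probe sets averaged within each gene, 7 of 18 genes lay below 0 and the ALT median was 0.16. Myo5b, a myosin motor for recycling endosomes, gave 293, 380 and 318 in the telomerase tumours, 278 in the parental tumour and 746, 723, 701, 655 and 549 in the ALT tumours. The ALT level was 2.04-fold higher (log2 difference 1.00), so the gene at which the chromosome was divided sits on the same side as its neighbours before it. A further probe set of Myo5b, much dimmer, gave −0.089 with overlap.

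Just before that division the genes above the filter lay on the higher side. Of the 5 genes from Myo5b onwards, only Myo5b was higher without overlap. Before the division, Ska1, a kinetochore protein, had a log2 difference of 0.51 with overlap. Cxxc1, which reads unmethylated CpG, and Mbd1, which reads methylated CpG, had 0.42 and 0.36 without overlap. Gm9925 and Cfap53 lay below the filter. Just after Myo5b, the thiolase Acaa2 had 0.12 with overlap, and its further probe sets gave −0.029 and −0.14 with overlap. The lncRNAs 1700120E14Rik and 9030625G05Rik lay below the filter. Lipg, an endothelial lipase that hydrolyses lipoprotein phospholipids, was lower, with 184, 268 and 153 in the telomerase tumours and 58.5, 43.5, 72.3, 49.0 and 65.7 in the ALT tumours. Its log2 difference was −1.54, and the brighter of its further probe sets gave −1.93 without overlap.

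Of the SMAD genes, Smad2, which carries TGF-beta and activin signals, gave 487, 556 and 438 in the telomerase tumours and 612, 739, 720, 706 and 890 in the ALT tumours. The kept probe set was higher in each ALT tumour (log2 difference 0.55), but a dimmer probe set of Smad2 was lower without overlap (−0.62), so that no direction holds for the gene. Smad7, the inhibitory SMAD, overlapped (80.9 ± 6.95, SD, n = 3, against 78.3 ± 20.8, SD, n = 5). Smad4, the common partner of the other SMADs, lies a short way before Myo5b and overlapped as well, with a log2 difference of −0.20.

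Haus1, a subunit of the augmin complex of the spindle, gave 655, 723 and 662 in the telomerase tumours, 678 in the parental tumour and 1060, 1147, 1055, 1079 and 1160 in the ALT tumours. Both groups were narrow and 1.62-fold apart. Ier3ip1, a small protein of the endoplasmic reticulum, had a log2 difference of 0.55 without overlap, but a further probe set gave 0.048 with overlap. Ctif, a translation initiation factor, had 0.36 without overlap. Pstpip2, an adaptor of the actin cytoskeleton best known in myeloid cells, gave 51.6, 10.3 and 17.4 against 85.8, 81.9, 121, 142 and 98.8. Its log2 difference of 1.62 was the highest of the stretch, and a further probe set gave 1.36 without overlap. Summed signals of 11 myeloid markers overlapped between the groups, at 8771 to 11248 in telomerase and 8044 to 12254 in ALT tumours.

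Before Myo5b, 184 of the 254 genes above the filter had a mean difference above 0. In 63 the ALT arrays lay above the telomerase arrays without overlap and in 18 below. The shares of all tested genes were 10.9% above and 13.9% below. On the single arrays, 167 to 186 of the 254 genes lay above the telomerase mean in the ALT tumours, and 77 did so in the parental tumour. The telomerase arrays themselves gave 98, 173 and 81, so telomerase 2 alone had a count like those of the ALT tumours. Further probe sets, 288 of 147 of these genes, gave a median of 0.21, with 214 above and 74 below 0, 75 higher and 12 lower without overlap.

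The higher level was not even along the chromosome. In segments of 20 genes above the filter, a division chosen after the values were seen, the ALT mean of the medians was between 0.17 and 0.36 in 11 of 13 segments. The other 2 were neighbours: from Spry4 to Pggt1b it was −0.024 ± 0.12 (SD, n = 5), and from Fem1c to Zfp608 it was −0.082 ± 0.031 (SD, n = 5), each overlapping the telomerase arrays. Genes of this middle stretch that were lower without overlap include Lars, the leucyl-tRNA synthetase, with a log2 difference of −0.63. The highest segment was the last before Myo5b, from Tcf4 to Mbd1, with 0.36 ± 0.14 (SD, n = 5). Its highest telomerase array stood at 0.14 and its lowest ALT array at 0.21. The groups also overlapped from Dsg2 to Celf4, from Pik3c3 to Nrep and from Epb41l4a to Mir1949. There the lowest ALT arrays stood at 0.0948, 0.102 and 0.154, and telomerase 2 at 0.118, 0.103 and 0.156.

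**Figure D5:**
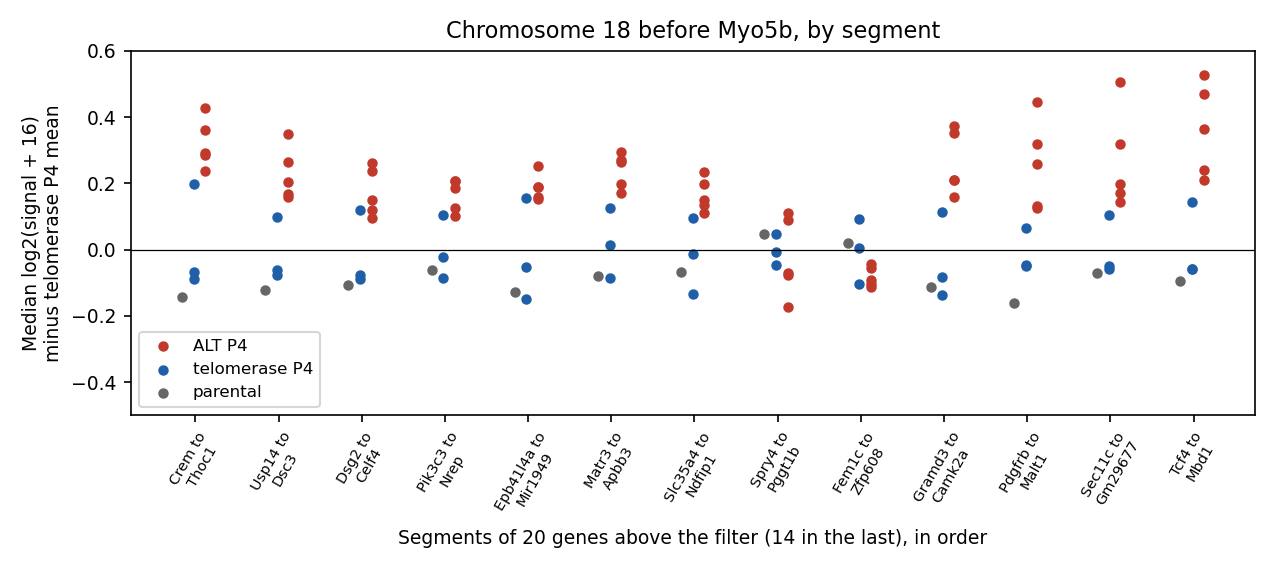
Median log2(signal + 16) minus the telomerase P4 mean in 13 consecutive segments of genes above the filter before Myo5b, 1 point per array. ALT points lie above 0.09 in 11 segments, and around or below 0 in the neighbouring segments Spry4 to Pggt1b and Fem1c to Zfp608.

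Single genes before Myo5b moved further than the stretch as a whole and in both directions. Mzb1, a chaperone of antibody-secreting cells in the endoplasmic reticulum, had the largest mean log2 difference (2.90). It gave 41.9, 78.8 and 58.1 in the telomerase tumours, 34.1 in the parental tumour and 288, 504, 1065, 1419 and 197 in the ALT tumours. Its ALT values spanned a wide range and were highest in ALT 3 and ALT 4, the ALT arrays without acinar transcripts. Summed signals of 5 B-cell markers overlapped, at 2383 to 5929 in telomerase and 2579 to 4599 in ALT tumours. Celf4, an RNA-binding protein best known in neurons, gave 54.4, 57.4 and 49.4 against 213, 135, 253, 173 and 214 (log2 difference 1.59).

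The uncharacterised C330018D20Rik had 9.1, 16.8 and 10.5 in the telomerase tumours and 94.9 to 127 in the ALT tumours. Lims2, a LIM protein of focal adhesions, had 4.6 to 8.0 in the telomerase tumours and 38.5 to 88.1 in the ALT tumours. In both, the telomerase signals were dim enough that the fold is not defined.

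Genes of TGF-beta signalling before Myo5b included Ldlrad4, an inhibitor of SMAD activation, with 243, 347 and 257 in the telomerase tumours and 577, 550, 696, 628 and 693 in the ALT tumours (log2 difference 1.12). Zeb1, a transcriptional repressor that works with SMAD proteins, had 523 ± 54.7 (SD, n = 3) against 810 ± 94.5 (SD, n = 5). Bambi, a decoy receptor, was dim and higher without overlap (27.5 ± 3.33, SD, n = 3, against 46.6 ± 9.16, SD, n = 5). In Ldlrad4 and Zeb1 each ALT tumour also lay above the parental tumour. Further, dimmer probe sets of Ldlrad4 gave −0.02 and 0.04 with overlap, and those of Zeb1 −0.22 and 0.45 with overlap.

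Of 13 genes on a list for T-cell and immune signalling before Myo5b, 11 were above the filter. Of these, 3 were higher and 0 lower without overlap, where the shares of all tested genes were 10.9% and 13.9%. Malt1, the paracaspase that links the antigen receptor to NF-kappaB, had 169 ± 9.61 (SD, n = 3) against 268 ± 39.7 (SD, n = 5). Both further probe sets of Malt1 were higher without overlap. Nedd4l, a ubiquitin ligase, had 325 ± 22.7 (SD, n = 3) against 523 ± 98.1 (SD, n = 5). Its further probe set above the filter gave 0.33 without overlap, while the mean of all its probe sets, dim ones included, gave 0.028 in place of 0.64. Ptpn2, a phosphatase that restrains cytokine and T-cell receptor signals, overlapped (log2 difference 0.04).

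The mitochondrial genes Mtpap, a poly(A) polymerase, and Afg3l2, a protease of the inner membrane, had log2 differences of 0.57 each without overlap. Reep5, which shapes the endoplasmic reticulum, had 1290 ± 110 (SD, n = 3) against 2178 ± 211 (SD, n = 5). Its further probe sets disagreed, one higher (0.75) and one lower (−0.83), both without overlap, so that no direction holds for the gene. Among 12 genes of translation before Myo5b the directions were divided. Without overlap 4 were lower and 1 higher, where the shares of all tested genes were 13.9% and 10.9%. The termination factor Etf1 was among the lower ones, with 2104 ± 346 (SD, n = 3) against 1420 ± 117 (SD, n = 5). Its 3 further probe sets gave 0.14 to 0.49 with overlap, so the lower value rests on the kept probe set. Riok3 and Eif1a were also among the lower ones, at −0.47 and −0.44. A further probe set of Riok3 was higher without overlap (1.16), and its others gave −0.24 and −0.54 with overlap. That of Eif1a gave −0.015 with overlap, so the count of lower genes rests on the brightest probe sets. Ribosomal protein gene Rps14 differed by 0.03 on the log2 scale.

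The lowest values before Myo5b were those of Smim3, a small membrane protein, with 189, 317 and 25.9 in the telomerase tumours and 12.1 to 22.6 in the ALT tumours. Telomerase 3 lay close to the ALT tumours here, so the gap rests on telomerase 1 and 2. Epb41l4a, a band 4.1 protein, gave 170, 103 and 283 against 35.6, 35.8, 28.7, 43.3 and 13.3 (log2 difference −2.03). Aqp4, a water channel, and Gramd3, a GRAM domain protein, had log2 differences of −1.59 and −1.34 without overlap, and their dimmer further probe sets gave −0.27 and −0.39 with overlap. Arsi, a sulfatase, was lower as well, and its telomerase mean was set by 413 in telomerase 3 beside 99.0 and 93.1 in the other two.

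Some members followed arrays with RNA of other cell types rather than the groups. Spink1, a trypsin inhibitor of the pancreas, gave 879 in telomerase 3 and 470, 577 and 2108 in ALT 1, ALT 2 and ALT 5, against 8.7 to 19.6 on the other arrays. Ttr, the thyroid hormone carrier, and Dsg2, a desmosomal cadherin, were highest on the same 4 arrays. Myot, a muscle Z-disc protein, gave 170 in the parental tumour and 154 in telomerase 1, the arrays with muscle markers, against 2.1 to 8.7 elsewhere. None of these members separated the groups. Clustered families gave few readable genes: 2 of 22 beta protocadherins, adhesion proteins of neurons, and 2 of 6 desmosomal cadherins were above the filter.

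Against other chromosomes, chromosome 18 had the highest median log2 difference of the 19 autosomes and X, at 0.18 over 293 genes, in spite of its lower tip. Chromosome 8 followed at 0.11, and chromosome 13 was the lowest at −0.37. The longest series of neighbouring genes above the filter that were each lower without overlap held 16 genes, from Pard6g to Cyb5a. A series of 16, from B3galnt2 to Stard3nl, stood on chromosome 13, and the next longest held 6 genes, on chromosomes 6 and 19. The longest series of higher genes on chromosome 18 held 4 genes, against 7 on chromosome 8. These series and medians come from the same comparison and are given without a test.

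A list of 27 other genes of TGF-beta and BMP signalling, a selection from these pathways, lies off chromosome 18. These genes were not used to choose those of the chromosome, so they were tested. The list was drawn up with earlier results of these data known, so the test is not fully independent of them. Of 27 listed genes 26 were measured and tested, and 2 rose and 5 fell in the ALT tumours (limma, adjusted over 12369 genes), where 7.48% of all tested genes rose and 10.1% fell. The list had a median of −0.049 against −0.0062 over all tested genes. Bmpr2, a type II BMP receptor, fell from 665 ± 40.4 (SD, n = 3) to 145 ± 26.1 (SD, n = 5), a log2 change of −2.09 (SE 0.14, limma adjusted p = 2.67e-05). The BMP-activated Smad5 fell by 1.02 on the log2 scale (limma adjusted p = 0.00033), and it lies on chromosome 13, where 76.1% of tested genes had a difference below 0. The ligand gene Tgfb3 rose by 1.39 (limma adjusted p = 0.000287). These 3 calls held in each of 21 other settings.

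Smad1 and Id3, a target of BMP signals, fell by 1.28 and 1.26 (limma adjusted p = 0.0219 and 0.00968). The activin receptor gene Acvr2b fell by 1.07 (limma adjusted p = 0.0316), and Skil, a repressor of SMAD activity, rose by 0.37 (limma adjusted p = 0.0163). These 4 calls were less stable, since without telomerase 1 none of them passed and 3 of the 7 calls on the list were left. The type I and II TGF-beta receptors Tgfbr1 and Tgfbr2 did not pass, with log2 differences of 0.26 and 0.04. Neither did Smad3, with −0.21, beside the split probe sets of Smad2 on chromosome 18.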

How the data were processed

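Total RNA of 9 tumours was hybridised to Affymetrix Mouse Genome 430 2.0 arrays. The deposited values are 1 MAS5 intensity for each probe set and array, per the submitters' processing notes. The MAS5 settings, scaling and genome build were not given in the sources used here, and the table holds no detection calls. The number of arrays limits the precision. All 9 columns were used, and no 2 arrays were identical.

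Of 45101 probe sets, 34958 name a single gene in the array annotation, 932 several and 9211 none. Chromosome and gene order came from RefSeq's GRCm38.p6 annotation, through the gene identifier. Neither coordinates nor sequences are printed. ALT and telomerase arrays were compared as log2(signal + 16) with limma 3.58.1 in R 4.3.3 (intensity trend, two-sided, Benjamini-Hochberg, threshold 0.05). The parental tumour was kept out of the model. The model was tested on simulated data. Summaries and plots used Python 3.11.15, pandas 2.3.3 and matplotlib 3.10.9.

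Members, lists and the division at Myo5b were chosen with earlier results of these data known. The rules for naming genes took the 10 genes on each side of Myo5b with the largest difference and no overlap, and the 5 neighbours on each side. They also took up to 4 genes of each of 14 role lists, and Smad2, Smad4, Smad7, Nfatc1, Cd226 and Myo5b. These rules gave 71 genes, not all of which are described above. The other genes named from Pard6g onwards and before Myo5b, the split at Pard6g, the segments, the series of neighbours and the further probe sets were added after the values were seen. Alternatives were other pseudocounts, filters, normalisations, boundaries, variance models and thresholds, the mean of probe sets, the parental tumour counted as telomerase, a replicate block, arrays left out, and arrays with or without acinar transcripts only.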

Additional observations from a re-analysis of the deposited data

Results flagged for a closer look

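Among the 5 ALT arrays, 79 values (stretch medians and named genes) were searched for an array far from the other 4, by its gap divided by the range; chance gives about 1 in 20. There were 4 such values. ALT 2 was high in the median of the genes before Myo5b above the filter (ratio 0.75), where it stood at 0.24 and the other ALT arrays at 0.19 to 0.20. ALT 5 was high in Afg3l2 (ratio 0.851), with a signal of 584 against 374 to 400, and in Rnmt, an mRNA cap methyltransferase (ratio 0.717), with 1521 against 1152 to 1246; a dimmer probe set of Rnmt was lower without overlap (−0.74). ALT 3 was low in Epg5 (ratio 0.845), with 1031 against 1273 to 1323. In these 3 genes the outlying array stayed above every telomerase array, and no gene from Pard6g to the distal end was among the 4 values.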

How the results depend on the processing

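Taken over all members, the medians were −0.075 from Myo5b onwards, 0.14 before it and −0.22 for their difference. A pseudocount of 1 gave 0.21 before Myo5b and −0.32 for the difference, and 64 gave 0.073 and −0.11. Arrays without acinar transcripts gave 0.10 before Myo5b; arrays with them gave 0.23 and a difference of −0.36. Only members above the lowest 40% of signals gave −0.60, 0.20 and −0.79, and above the lowest 60% −0.98, 0.21 and −1.19. A start 10 genes further towards the distal end gave −0.16 for the distal median. A start at Pard6g, chosen after seeing the data, gave −1.05 and a difference of −1.20, and with the 40% filter −1.46, 0.20 and −1.67. Leaving out single arrays gave −0.11 to −0.048, 0.12 to 0.16 and −0.25 to −0.19. The sign of these medians turned in 1 setting, a start 10 genes further towards the centromere, where the median from there onwards was 0.0014. Over the members from Pard6g onwards above the filter, 20 of 21 stayed below 0 under each scaling, and the median ran from −1.51 (pseudocount 1) to −1.02 (mean of probe sets).

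Calls with single arrays left out were 23 to 28 from Myo5b onwards, 32 to 71 before it, 1163 to 2097 over all genes and 3 to 8 on the TGF-beta list. Arrays without acinar transcripts gave 24 before Myo5b and 833 over all genes; arrays with them (1 telomerase and 3 ALT) gave 7, 11, 336 and 3 on the list. These subsets hold fewer arrays. Replicate numbers are shared between the groups. Same-numbered arrays had correlations of −0.30, −0.40 and −0.57 in their deviations, and differently numbered ones ran from −0.49 to 0.45. Each same-numbered pair joined an array with acinar transcripts to one without. These values therefore cannot decide whether the numbers pair the groups. A replicate block gave 24 calls from Myo5b onwards, 26 before it, 991 over all genes and 4 on the list. Of 1207 comparisons over 71 named genes, 1095 moved by less than the SD of the ALT arrays, 110 moved further and 2 reversed a called gene: Rnmt at −0.11 and Smad2 at −0.034 with the mean of probe sets. Counting genes not called, the sign turned in 27 comparisons of 12 genes, among them Pmaip1 at 0.69 on arrays with acinar transcripts and Smad4 at 0.040 with the mean of probe sets. The cause was not tested.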
